A study of Mus musculus with 14 samples.

Results

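The conjugation enzymes of phase II metabolism are described here in the liver of mice on a steatosis-inducing diet. Members were all genes on the array whose symbol names a cytosolic or mitochondrial glutathione S-transferase (Gst), a microsomal one (Mgst), a UDP-glycosyltransferase (Ugt) or a sulfotransferase (Sult), each represented by its probe set of highest mean. This gave 56 genes among the 22206 probe sets tested, which carry 19505 symbols. They comprise 21 Gst, 3 Mgst, 11 Ugt and 21 Sult genes, and the rule used the symbol and the mean level over all arrays, not a difference between diets. The mice were wild-type adult males of the C57Bl6 strain. For 2 weeks they received one of a pair of diets, CSAA, a choline-supplemented control, or CDAA, which lacks choline and was enriched in cholesterol, glucose and fructose. Primary hepatocytes (PH) came from collagenase perfusion, with 3 preparations per diet, and total liver (TL) was the caudal lobe after saline perfusion, with 4 per diet. The design text calls the preparations independent and does not say whether a mouse gave both tissues. RNA of each tissue was extracted with a different kit, and each of the 14 samples was hybridised to 1 Clariom S array.

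Phase II enzymes attach a polar group to drugs, steroids, bile acids and reactive lipid products, which makes them easier to excrete. Glutathione S-transferases couple electrophiles to glutathione, UDP-glycosyltransferases transfer a sugar from a UDP sugar, most often glucuronic acid, and sulfotransferases transfer sulfate from PAPS. The hepatocyte is the main site of these reactions. Many of the genes lie in clusters of related copies, several are targets of the oxidant-sensing factor NRF2 or of the xenobiotic receptors CAR and PXR, and many differ between male and female mouse liver.

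All values are log2 intensities, and a log2 fold change is CDAA minus CSAA with its standard error. That error rests on 1 spread per probe set shared by the arrays of both tissues, not on the compared groups alone. A gene is said to have risen or fallen where limma's moderated test passed an adjusted p of 0.05, adjusted by Benjamini-Hochberg across the 22206 probe sets. The tissues appear to have been normalized as separate sets, so levels are compared between diets and not between tissues. Background was the 95th percentile of each array's intron controls, between 6.84 and 8.01 for hepatocytes and between 9.96 and 10.23 for total liver. A gene was not above background in a group if none of the group's arrays exceeded it. Arrays of 1 group correlated at 0.952 to 0.995, and the hepatocyte groups were the more variable. The number of arrays limits the precision, and in such bulk samples fewer cells of a type and less RNA per cell cannot be told apart.

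The labelled hepatocytes carried their defining markers in both diets, but on CDAA they also carried markers of other liver cells. The mean of 10 Kupffer cell markers was 5.29 to 5.78 in the CSAA hepatocyte arrays and 11.68 to 13.25 in the CDAA arrays, and all 10 rose. On CSAA, none of the 10 was above background. Markers of recruited macrophages went from 3.94 to 4.16 up to 9.32 to 10.89 (10 of 10 rose), those of sinusoidal endothelial cells from 5.93 to 6.35 up to 9.25 to 10.46 (9 of 10 rose), and those of stellate cells from 4.99 to 5.54 up to 8.79 to 9.90 (11 of 12 rose). The hepatocyte markers averaged 18.96 to 19.11 on CSAA and 18.45 to 18.94 on CDAA, and 2 of 10 fell. In total liver, the hepatocyte marker mean was 18.20 to 18.31 on CSAA and 18.20 to 18.35 on CDAA. There, all 10 recruited macrophage markers rose (5.53 to 5.64 up to 9.96 to 10.93), as did 7 of 10 Kupffer cell, 5 of 12 stellate cell and 1 of 10 endothelial cell markers. Of all tested probe sets, 11.0% rose and 7.74% fell in hepatocytes, and 6.73% rose in total liver. The part of the other liver cells in the member results below was not tested.

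**Figure D1:**
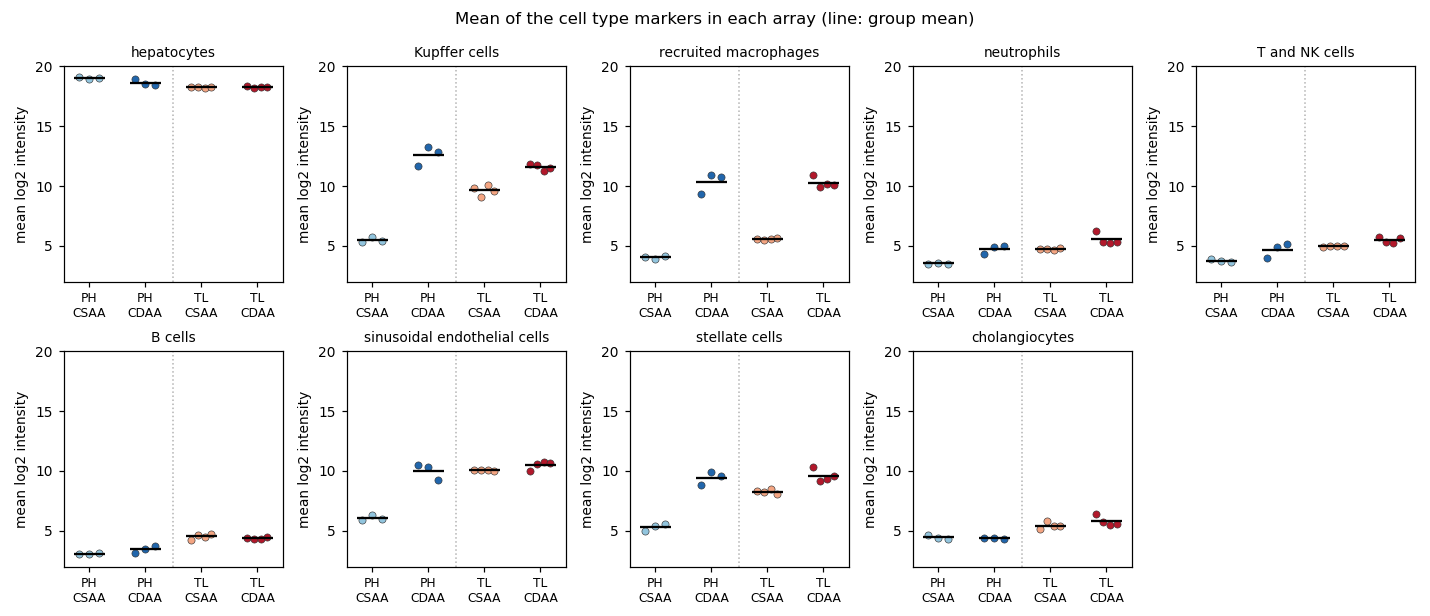
Mean log2 intensity of the markers of 9 cell types (vertical axis) in each array, by tissue and diet, with a line at each group's mean. In hepatocytes, macrophage, endothelial and stellate cell markers were higher in each of the 3 CDAA arrays than in any CSAA array. The hepatocyte marker mean there was 18.96 to 19.11 on CSAA and slightly lower, 18.45 to 18.94, on CDAA.

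The alpha and mu classes of glutathione S-transferase held most of the genes that rose, and Ugt genes that passed the test all fell. In total liver 15 of 56 members (26.8%) passed the test, 9 higher on CDAA and 6 lower. Of all tested probe sets 10.3% passed there, 6.73% higher and 3.54% lower. In hepatocytes 19 members (33.9%) passed, 9 higher and 10 lower, beside 18.7% of all probe sets, 11.0% higher and 7.74% lower. Many probe sets were dim, and among probe sets above background in at least 1 diet, 17.6% passed in total liver and 34.2% in hepatocytes, beside 13 of 32 and 18 of 36 members.

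In total, 13 members passed in both tissues, all in the same direction. Gsta2, Gsta4, Gstm1, Gstm2, Gstm3, Gstm4, Mgst3 and Sult1d1 rose, and Sult2a8, Ugt2a3, Ugt2b1, Ugt2b38 and Ugt3a1 fell. A further 2 passed in total liver alone (Sult1b1, Sult1e1) and 6 in hepatocytes alone (Gstk1, Gstm6, Gstp1, Gstp2, Sult5a1, Ugt3a2), and 35 passed in neither. This split depended on the fit. With only the total liver arrays in the fit, Gstm6, Gstp1, Sult5a1 and Ugt3a2 also passed there (adjusted p = 0.0281, 0.0454, 0.0443 and 0.0442). Their direction was the same as in hepatocytes, and Gstk1 and Gstp2 did not pass. The arrays of the diets did not overlap for 24 members (42.9%) in total liver, beside 25.1% of all probe sets, and for 19 (33.9%) in hepatocytes, beside 26.6%. The median log2 fold change of the members was -0.10 in total liver and -0.18 in hepatocytes, close to the -0.09 and -0.13 of all tested probe sets. The median size was larger, at 0.59 and 0.61 beside 0.28 and 0.38. Of the 56 genes 20 were not above background in any group, 16 of them sulfotransferases.

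**Figure D2:**
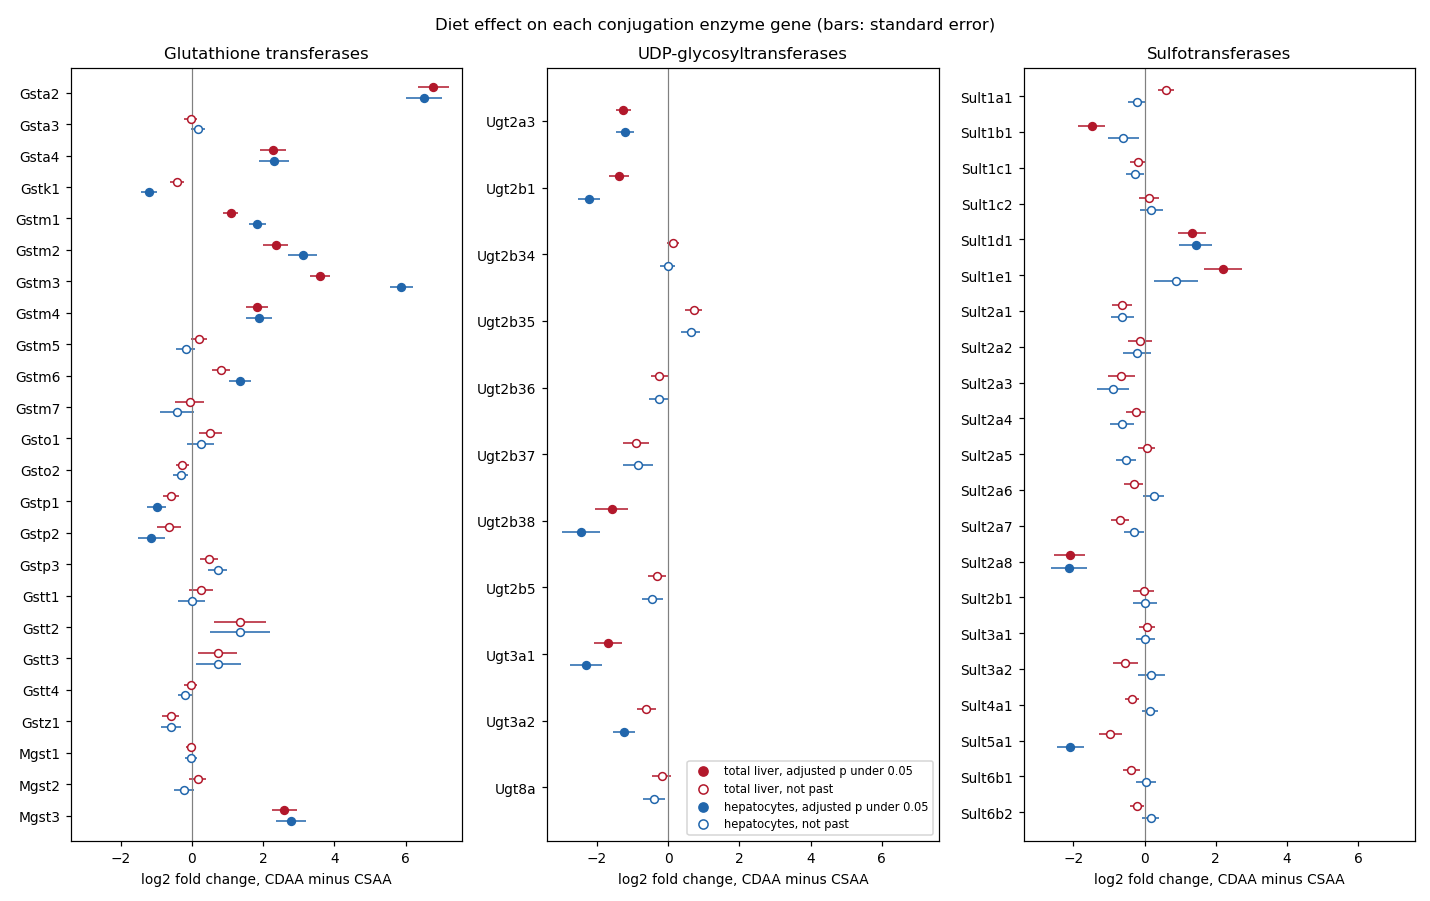
Log2 fold change (CDAA minus CSAA, horizontal axis) with its standard error for all 56 members, in total liver (red) and hepatocytes (blue), filled where the adjusted p was under 0.05. Gsta2 and Gstm3 lie farthest to the right, and the filled points among the Ugt genes all lie left of 0.

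Within the alpha class, Gsta2 and Gsta4 rose in both tissues while Gsta3 did not pass the test in either. Gsta2 encodes an alpha-class enzyme that also reduces lipid hydroperoxides, and it had the largest log2 fold change of all members in each tissue. In hepatocytes, Gsta2 read 10.10, 8.72 and 8.64 on CSAA and 14.78, 16.60 and 15.64 on CDAA. In total liver, Gsta2 read 9.77, 10.32, 8.72 and 8.76 on CSAA and 15.90, 16.59, 16.30 and 15.92 on CDAA. The diets were far apart in both, with log2 fold changes of 6.52 ± 0.50 (91.9-fold, adjusted p = 1.73e-07) in hepatocytes and 6.78 ± 0.44 (110-fold, adjusted p = 1.69e-07) in total liver. In total liver only 1 of the 4 CSAA arrays lay above background, so the starting level there is less certain than in hepatocytes, where all 3 did. Gsta1, a near copy of Gsta2, was not analysed here, and whether the Gsta2 probes tell the copies apart was not checked.

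Gsta4, which conjugates the lipid peroxidation product 4-hydroxynonenal, showed the same direction at lower size. In hepatocytes, Gsta4 read 10.37, 10.82 and 10.59 on CSAA and 12.33, 13.03 and 13.36 on CDAA. In total liver, Gsta4 read 11.11, 11.49, 10.45 and 9.35 on CSAA and 12.96, 12.39, 13.19 and 12.99 on CDAA. No CDAA array overlapped the CSAA arrays, and the log2 fold changes were 2.31 ± 0.43 (adjusted p = 0.00111) and 2.28 ± 0.37 (adjusted p = 0.000804). Gsta3, the enzyme that protects mouse liver from aflatoxin epoxide, did not pass the test. In hepatocytes, Gsta3 measured 18.03, 17.69 and 17.62 on CSAA and 17.71, 18.34 and 17.78 on CDAA. In total liver, Gsta3 measured 17.83, 17.86, 17.57 and 17.61 on CSAA and 17.63, 17.82, 17.75 and 17.52 on CDAA. These groups overlapped, with log2 fold changes of 0.17 ± 0.21 (adjusted p = 0.637) and -0.03 ± 0.18 (adjusted p = 0.935).

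Gsta4 and Gsta2 lie at the ends of a cluster on chromosome 9 that also holds Gsta1, and Gsta3 lies on chromosome 1. The 250 bases before the annotated start of Gsta2 and Gsta3 are shown because the pair differed most within the class. They are RefSeq sequences of GRCm38.p6 (Gsta2 at chr9:78347146-78347395, minus strand, and Gsta3 at chr1:21240335-21240584, plus strand), 5′ to 3′ along the gene. Capitals mark matches to TGACNNNGC, the core of the antioxidant response element that NRF2 binds, or to GTTAAT, part of the element of hepatocyte nuclear factor 1, on either strand.
Gsta2: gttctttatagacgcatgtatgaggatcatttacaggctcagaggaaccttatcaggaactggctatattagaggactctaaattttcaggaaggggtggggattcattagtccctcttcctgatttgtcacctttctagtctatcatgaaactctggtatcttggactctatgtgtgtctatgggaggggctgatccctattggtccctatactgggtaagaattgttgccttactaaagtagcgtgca
Gsta3: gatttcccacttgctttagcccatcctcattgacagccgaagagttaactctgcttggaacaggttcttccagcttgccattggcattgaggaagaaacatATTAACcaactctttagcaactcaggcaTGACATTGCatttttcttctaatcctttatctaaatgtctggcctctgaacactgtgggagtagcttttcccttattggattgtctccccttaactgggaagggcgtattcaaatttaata
The 2 windows were 51.7% identical. Gsta2, which rose, held neither run of letters in this window, while Gsta3 held TGACATTGC starting 121 bases before the start and ATTAAC starting 149 bases before it.

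The mu class was the family with the most members that rose. Of 7 Gstm genes, 5 rose in hepatocytes and 4 in total liver, with a class median of 1.83 and 1.09 on the log2 scale. These were 71.4% and 57.1% of the class, beside 11.0% and 6.73% of all probe sets that rose. Gstm3 showed the largest change of the class. In hepatocytes, Gstm3 read 12.88, 12.71 and 11.88 on CSAA and 19.05, 18.54 and 17.53 on CDAA. In total liver, Gstm3 read 14.43, 14.24, 14.40 and 14.22 on CSAA and 18.01, 17.91, 17.90 and 17.89 on CDAA. No CDAA array came near the CSAA arrays in either tissue. The log2 fold changes were 5.88 ± 0.32 (59-fold, adjusted p = 5.32e-09) and 3.61 ± 0.28 (12.2-fold, adjusted p = 1.15e-06).

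Gstm3 was also the only member whose diet effect differed between the tissues. The effect in total liver minus that in hepatocytes was -2.27 ± 0.43 (adjusted p = 0.00658), where 2.57% of all probe sets passed (0.212% higher, 2.36% lower). With all 14 arrays quantile-normalized together this difference was -0.65 (adjusted p = 0.495), so it depended on how the tissues were scaled. No other member passed this test in limma. Unadjusted, Gstk1, Sult1a1 and Sult5a1 had p under 0.05 with a difference above 0, and Gstm1 with one below 0. For Gstk1 and Sult5a1 this was a smaller fall in total liver (-0.42 and -0.96) than in hepatocytes (-1.20 and -2.09).

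Gstm1 and Gstm2 encode mu-class enzymes that conjugate epoxides and quinones. In hepatocytes, Gstm1 read 17.65, 17.68 and 16.86 on CSAA and 19.54, 19.31 and 18.83 on CDAA. In total liver, Gstm1 read 17.62, 17.54, 17.44 and 17.50 on CSAA and 18.63, 18.55, 18.67 and 18.62 on CDAA. The CDAA arrays were all higher, with log2 fold changes of 1.83 ± 0.24 (adjusted p = 3.9e-05) and 1.09 ± 0.21 (adjusted p = 0.00252). In hepatocytes, Gstm2 read 10.24, 11.22 and 9.83 on CSAA and 14.25, 13.87 and 12.49 on CDAA. In total liver, Gstm2 read 12.71, 12.81, 12.62 and 12.41 on CSAA and 14.62, 15.48, 14.96 and 14.92 on CDAA. Again the diets did not overlap in either tissue, with 3.11 ± 0.41 (adjusted p = 4.17e-05) and 2.36 ± 0.35 (adjusted p = 0.000395).

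Gstm4, a further mu-class enzyme, changed by a similar amount in both tissues. In hepatocytes, Gstm4 read 12.03, 12.39 and 11.44 on CSAA and 14.64, 13.88 and 12.99 on CDAA. In total liver, Gstm4 read 12.86, 12.74, 12.47 and 12.53 on CSAA and 13.83, 14.87, 14.68 and 14.52 on CDAA. The log2 fold changes were 1.88 ± 0.37 (adjusted p = 0.00179) and 1.83 ± 0.32 (adjusted p = 0.00143), without overlap between diets. Gstm6 rose in hepatocytes. In hepatocytes, Gstm6 read 10.94, 11.21 and 11.17 on CSAA and 13.02, 12.47 and 11.89 on CDAA. This was 1.36 ± 0.31 (adjusted p = 0.00496) with all CDAA arrays higher. In total liver, Gstm6 read 13.85, 13.70, 13.47 and 13.30 on CSAA and 13.83, 15.00, 14.41 and 14.35 on CDAA. In that tissue CDAA replicate 1 lay within the CSAA range, and 0.82 ± 0.26 did not pass (adjusted p = 0.064). The last 2 of the class did not pass in either tissue: Gstm7 gave -0.42 ± 0.47 in hepatocytes and -0.06 ± 0.41 in total liver, and Gstm5, which is dim here, gave -0.18 ± 0.26 and 0.20 ± 0.23.

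**Figure D3:**
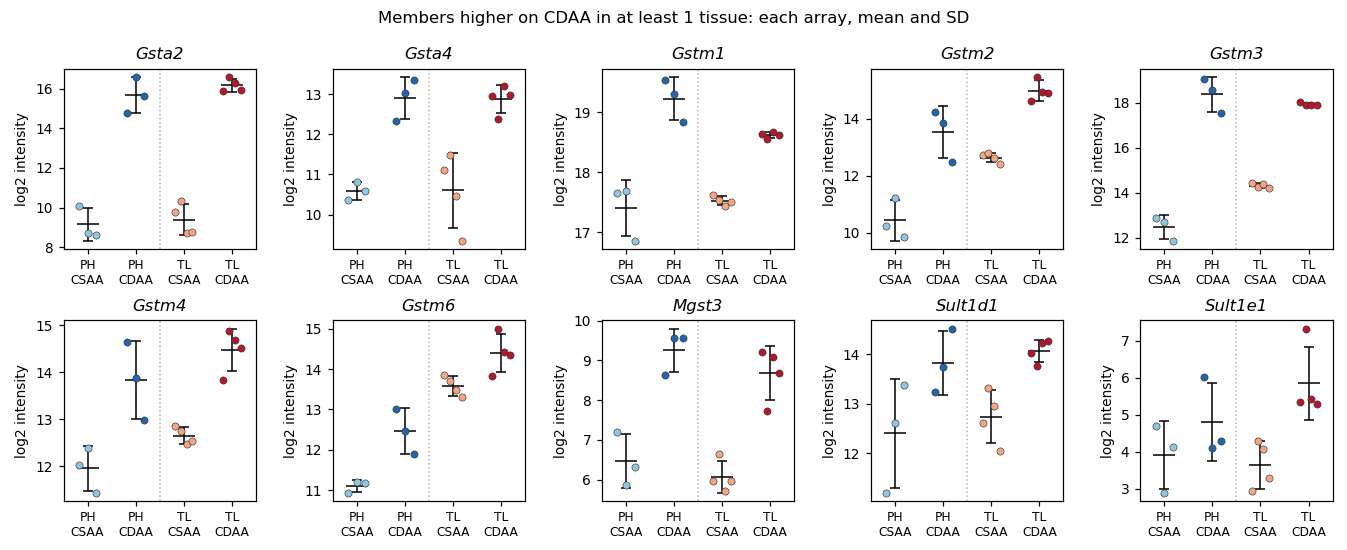
Log2 intensity (vertical axis) in every array for the 10 members that rose in at least 1 tissue, by tissue and diet, with mean and SD. For Gsta2, Gsta4, Gstm1, Gstm2, Gstm3, Gstm4 and Mgst3 no CDAA array overlaps the CSAA arrays of its tissue; levels are not comparable between tissues.

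On chromosome 3 the mu genes lie in the annotated order Gstm5, Gstm7, Gstm6, Gstm3, Gstm2, Gstm1, Gstm4, with pseudogenes between some of them. The 5 genes that rose in hepatocytes were neighbours at one end of this row, and the 2 that did not pass stood at the other. The window before Gstm3 is given as the member of the row with the largest change (Gstm3 at chr3:107969175-107969424, minus strand, GRCm38.p6, RefSeq).
Gstm3: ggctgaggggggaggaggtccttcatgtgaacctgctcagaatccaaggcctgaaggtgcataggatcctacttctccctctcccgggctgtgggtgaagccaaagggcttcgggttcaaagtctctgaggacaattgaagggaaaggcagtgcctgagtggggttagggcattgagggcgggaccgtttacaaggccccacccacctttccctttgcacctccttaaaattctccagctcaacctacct
It held none of the 3 motifs searched (the third is TGANTCAGC, below). Gstm5 and Gstm7, which did not pass, did hold TGACNNNGC, 42 and 129 bases before their starts. Pairs of mu-gene windows were 46.8% to 52.8% identical.

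**Figure D4:**
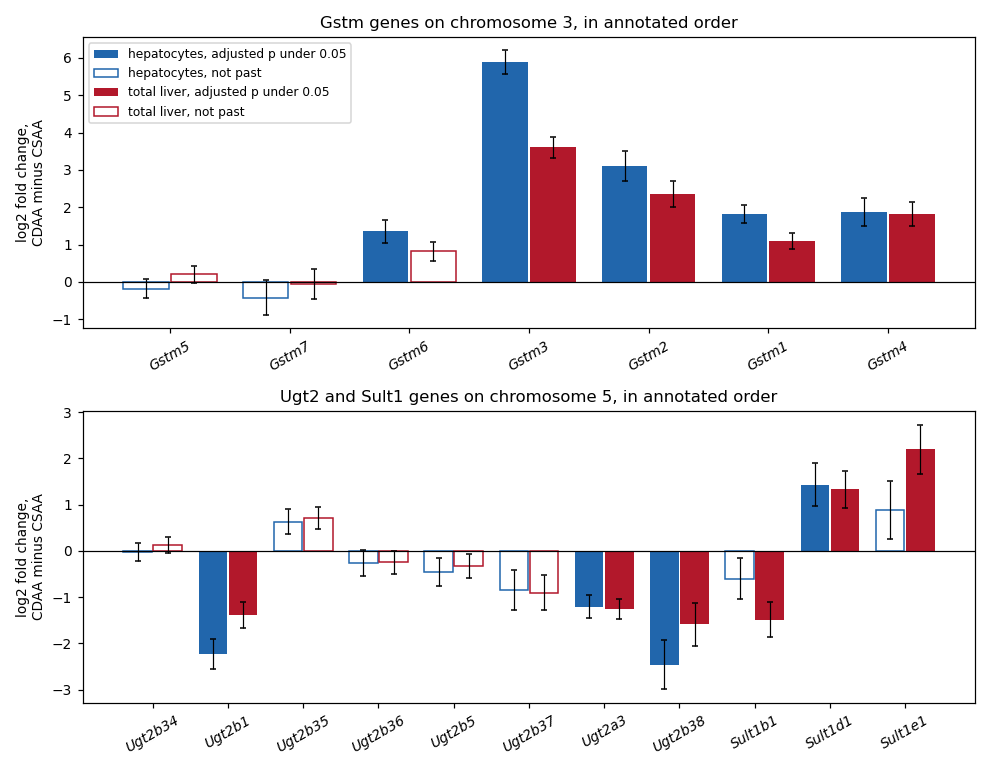
Log2 fold change (vertical axis, with SE) of the members on chromosomes 3 and 5, in annotated order, in hepatocytes (blue) and total liver (red), filled where the adjusted p was under 0.05. Gstm6 to Gstm4 lie above 0 as a run, whereas on the Ugt2 row Ugt2b1, Ugt2a3 and Ugt2b38 are filled below 0 and the other 5 are open.

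Of the 3 pi-class genes, Gstp1 and Gstp2 fell in hepatocytes. Gstp1 is the pi-class enzyme abundant in male mouse liver, and Gstp2 its neighbouring near copy on chromosome 19, so the probe sets may read both transcripts. In hepatocytes, Gstp1 read 18.09, 17.45 and 18.41 on CSAA and 16.66, 17.22 and 17.09 on CDAA. All CDAA arrays were lower, with a log2 fold change of -0.99 ± 0.27 (adjusted p = 0.0161). In hepatocytes, Gstp2 read 17.75, 16.90 and 18.04 on CSAA and 15.48, 16.93 and 16.88 on CDAA. Here CDAA replicate 2 reached just above CSAA replicate 2, so the diets overlapped, and -1.14 ± 0.38 only just passed (adjusted p = 0.0492).

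In total liver neither passed. In total liver, Gstp1 read 16.56, 16.97, 16.92 and 16.93 on CSAA and 15.92, 16.63, 16.43 and 16.09 on CDAA. In total liver, Gstp2 read 15.85, 16.36, 16.26 and 16.20 on CSAA and 15.03, 15.99, 15.70 and 15.41 on CDAA. The diets overlapped in both, with -0.58 ± 0.23 (adjusted p = 0.142) and -0.64 ± 0.33 (adjusted p = 0.262). Gstp3 gave 0.72 ± 0.27 (adjusted p = 0.0815) and 0.48 ± 0.24 (adjusted p = 0.234). The hepatocyte calls were fragile. Gstp1 did not pass without CSAA replicate 1 or 3 (adjusted p up to 0.0681, log2 fold changes from -1.26 to -0.78 over the arrays left out). It was also lost with the hepatocyte arrays alone in the fit or with arrays centred on hepatocyte markers (adjusted p up to 0.205). With 1 array left out, Gstp2 passed only when that array was hepatocyte CSAA replicate 2 or CDAA replicate 2 or 3. It was -0.66 (adjusted p = 0.161) without CDAA replicate 1. Those same 2 settings lost Gstp2 too, as did joint quantile normalization and array weights (adjusted p up to 0.265).

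The windows of the neighbours are shown because they share a motif found in no other member that had a window (Gstp1 at chr19:4037913-4038162, minus strand, and Gstp2 at chr19:4042222-4042471, minus strand, GRCm38.p6, RefSeq). Capitals mark TGANTCAGC, the core of the element bound by dimers of cap-n-collar and small MAF proteins.
Gstp1: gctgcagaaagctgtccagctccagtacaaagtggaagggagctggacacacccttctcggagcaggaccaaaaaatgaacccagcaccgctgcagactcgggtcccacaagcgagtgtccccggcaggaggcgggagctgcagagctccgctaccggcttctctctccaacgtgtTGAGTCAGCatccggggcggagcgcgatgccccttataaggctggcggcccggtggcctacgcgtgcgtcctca
Gstp2: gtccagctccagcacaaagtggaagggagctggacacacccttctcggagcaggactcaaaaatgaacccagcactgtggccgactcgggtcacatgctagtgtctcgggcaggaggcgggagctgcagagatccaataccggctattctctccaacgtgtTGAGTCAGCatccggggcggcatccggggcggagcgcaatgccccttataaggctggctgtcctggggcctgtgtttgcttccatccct
These windows were 78.5% identical, and each held TGAGTCAGC, starting 74 bases before the start in Gstp1 and 89 in Gstp2. Over all 32851 windows of 300 bases in the table (250 before to 50 after the start), 1.2% held TGANTCAGC, 12.4% held TGACNNNGC and 7.1% held GTTAAT, on either strand. Of the 56 members 49 had a window. Of these 4 held TGACNNNGC (Gsta3, Gstm5, Gstm7, Mgst1), and none is among the 9 risen members with a window. GTTAAT was held by 10: 1 of the 9 risen (Sult1d1), 2 of the 10 fallen (Ugt2a3, Ugt3a1) and 7 of the 30 that did not pass.

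Gstk1, a mitochondrial and peroxisomal enzyme, fell in hepatocytes. In hepatocytes, Gstk1 read 14.44, 14.58 and 14.76 on CSAA and 13.36, 13.65 and 13.15 on CDAA. The diets did not overlap, with -1.20 ± 0.23 (adjusted p = 0.00119). In total liver, Gstk1 read 14.46, 14.76, 14.15 and 14.18 on CSAA and 13.93, 13.72, 14.29 and 13.92 on CDAA. The ranges overlapped there, with -0.42 ± 0.20 (adjusted p = 0.208), and the difference between tissues was 0.78 ± 0.30 (adjusted p = 0.272).

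The theta, omega and zeta classes did not pass in either tissue in the main fit. Theta enzymes act on halogenated small molecules. Gstt2 varied widely between arrays of 1 group: it ranged from 8.63 to 11.47 on CSAA and from 9.13 to 11.90 on CDAA in hepatocytes, with 1.36 ± 0.84, and gave 1.34 ± 0.73 in total liver. Gstt1 gave -0.01 ± 0.38 and 0.25 ± 0.33, and Gstt3, above background only in hepatocytes on CDAA, 0.74 ± 0.63 and 0.72 ± 0.54. Gstt4 and Gsto2 were not above background in any group. Gsto1, an omega enzyme that reduces dehydroascorbate, gave 0.25 ± 0.38 and 0.52 ± 0.33. Gstz1, the maleylacetoacetate isomerase of tyrosine breakdown, gave -0.60 ± 0.28 (adjusted p = 0.166) and -0.60 ± 0.25 (adjusted p = 0.151), and in total liver its CDAA arrays were all lower than its CSAA arrays. There Gstz1 did pass with only the total liver arrays in the fit (-0.60, adjusted p = 0.0144). It also passed with joint quantile normalization (-0.72, adjusted p = 0.0437) and with array weights (-0.56, adjusted p = 0.0243).

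Of the 3 microsomal enzymes, which sit in membranes and also reduce lipid peroxides, Mgst3 alone passed. In hepatocytes, Mgst3 read 7.20, 5.87 and 6.31 on CSAA and 8.62, 9.56 and 9.57 on CDAA. None of the CSAA arrays was above background, so the rise was at least 1.51 on the log2 scale (at least 2.84-fold, the CDAA mean over the background level), with a fitted 2.79 ± 0.42 (adjusted p = 0.000154). In total liver, Mgst3 read 5.97, 6.64, 5.71 and 5.97 on CSAA and 9.22, 7.72, 9.09 and 8.67 on CDAA. Every array was under background in total liver, where the fit gave 2.60 ± 0.36 (adjusted p = 0.000208) and no bound can be set. Mgst1 lay at 19.63 to 19.83 in every hepatocyte array and at 18.67 to 18.81 in total liver, with -0.03 ± 0.16 and -0.03 ± 0.14. Mgst2, involved in leukotriene synthesis and not above background in any group, gave -0.23 ± 0.28 and 0.16 ± 0.24.

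All Ugt genes that passed the test fell on CDAA: 5 of 11 in hepatocytes and 4 in total liver, with medians of -0.85 and -0.62. These were 45.5% and 36.4% of the Ugt genes, beside 7.74% and 3.54% of all probe sets that fell. Ugt2b enzymes glucuronidate steroids, bile acids and drugs. Ugt2b1 fell in both tissues. In hepatocytes, Ugt2b1 read 16.87, 17.22 and 17.26 on CSAA and 14.91, 15.34 and 14.41 on CDAA. In total liver, Ugt2b1 read 17.23, 17.12, 17.12 and 16.69 on CSAA and 14.77, 15.83, 16.01 and 16.00 on CDAA. The CDAA arrays were all lower, with -2.23 ± 0.32 (4.68-fold lower, adjusted p = 0.000103) and -1.39 ± 0.28 (2.61-fold lower, adjusted p = 0.00368).

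Ugt2b38 showed the largest fall of the family in hepatocytes. In hepatocytes, Ugt2b38 read 13.88, 12.76 and 14.60 on CSAA and 10.35, 10.96 and 12.53 on CDAA. In total liver, Ugt2b38 read 13.25, 13.34, 13.84 and 13.55 on CSAA and 11.05, 12.43, 12.41 and 11.72 on CDAA. The ranges did not overlap, with -2.46 ± 0.53 (adjusted p = 0.00344) and -1.59 ± 0.46 (adjusted p = 0.0372). The total liver call was lost without any of the CSAA replicates 1 to 4 or without CDAA replicate 1 or 4 (-1.77 to -1.31, adjusted p up to 0.134), and the hepatocyte call with the hepatocyte arrays alone in the fit (adjusted p = 0.0619). Its promoter window was 85.2% identical to that of Ugt2b37 and 81.5% to that of Ugt2b5, and whether the probe sets tell these copies apart was not checked.

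The other 5 Ugt2b genes did not pass: Ugt2b34 gave -0.02 ± 0.20 in hepatocytes and 0.12 ± 0.17 in total liver, Ugt2b36 -0.27 ± 0.28 and -0.25 ± 0.24, and Ugt2b5 -0.45 ± 0.30 and -0.32 ± 0.26. Ugt2b37 gave -0.85 ± 0.43 (adjusted p = 0.193) and -0.90 ± 0.37 (adjusted p = 0.151). In total liver its CDAA arrays, not above background, were all lower than its CSAA arrays. It passed in some alternatives: -1.52 in hepatocytes without CSAA replicate 2 (adjusted p = 0.00279), and -0.90 with only the total liver arrays in the fit (adjusted p = 0.00994). Ugt2b5 passed in hepatocytes without CDAA replicate 3 (-0.85, adjusted p = 0.0281). Ugt2b35 was the one with a positive value in both, 0.63 ± 0.27 (adjusted p = 0.123) and 0.71 ± 0.23 (adjusted p = 0.0691). In total liver its CDAA arrays, at 13.44 to 13.98, were all above its CSAA arrays, at 12.70 to 13.16. Ugt2b35 too passed in some alternatives: 0.94 in hepatocytes without CSAA replicate 3 (adjusted p = 0.0162), and 0.71 with only the total liver arrays in the fit (adjusted p = 0.0112). On chromosome 5 the annotated order is Ugt2b34, Ugt2b1, Ugt2b35, Ugt2b36, Ugt2b5, Ugt2b37, Ugt2a3, Ugt2b38, so the 3 genes that fell were not all adjacent.

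Ugt2a3, which glucuronidates bile acids, fell by nearly the same amount in the 2 tissues. In hepatocytes, Ugt2a3 read 16.18, 15.97 and 16.62 on CSAA and 14.80, 15.06 and 15.27 on CDAA. In total liver, Ugt2a3 read 16.56, 16.36, 16.56 and 16.39 on CSAA and 14.92, 14.85, 15.63 and 15.45 on CDAA. No arrays overlapped between diets, with -1.21 ± 0.25 (adjusted p = 0.00231) and -1.26 ± 0.21 (adjusted p = 0.00109). With arrays centred on their hepatocyte markers, a setting chosen after the data were seen, the hepatocyte value was -0.82 (adjusted p = 0.0566). The window before Ugt2a3 (Ugt2a3 at chr5:87337196-87337445, minus strand, GRCm38.p6, RefSeq) is shown for its repeated GTTAAT, in capitals, starting 54 and 47 bases before the start.
Ugt2a3: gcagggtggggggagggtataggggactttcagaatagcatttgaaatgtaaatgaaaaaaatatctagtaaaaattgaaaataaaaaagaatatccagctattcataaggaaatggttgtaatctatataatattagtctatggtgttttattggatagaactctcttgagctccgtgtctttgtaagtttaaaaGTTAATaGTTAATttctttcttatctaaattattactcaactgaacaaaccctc

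The Ugt3 enzymes use UDP sugars other than glucuronic acid. Ugt3a1 fell in both tissues. In hepatocytes, Ugt3a1 read 14.30, 13.67 and 14.33 on CSAA and 12.61, 12.32 and 10.46 on CDAA. In total liver, Ugt3a1 read 14.86, 14.96, 14.61 and 14.72 on CSAA and 12.27, 13.18, 13.55 and 13.37 on CDAA. The diets were separate, with -2.30 ± 0.45 (4.94-fold lower, adjusted p = 0.0017) and -1.70 ± 0.39 (3.25-fold lower, adjusted p = 0.0102). Ugt3a2, also on chromosome 15, fell in hepatocytes. In hepatocytes, Ugt3a2 read 17.51, 17.45 and 17.89 on CSAA and 16.85, 16.72 and 15.54 on CDAA. This was -1.25 ± 0.31 (adjusted p = 0.0104), and -0.83 (adjusted p = 0.0372) without CDAA replicate 3, the lowest array. The call was lost with the hepatocyte arrays alone in the fit or with arrays centred on hepatocyte markers (adjusted p up to 0.104). In total liver, Ugt3a2 read 17.21, 17.33, 17.27 and 17.16 on CSAA and 16.02, 16.70, 16.88 and 16.90 on CDAA. The CDAA arrays were again lower, but -0.62 ± 0.27 did not pass (adjusted p = 0.181). Ugt8a, the galactosyltransferase of myelin lipids, was not above background in any group. Genes of the Ugt1a locus were not analysed here.

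**Figure D5:**
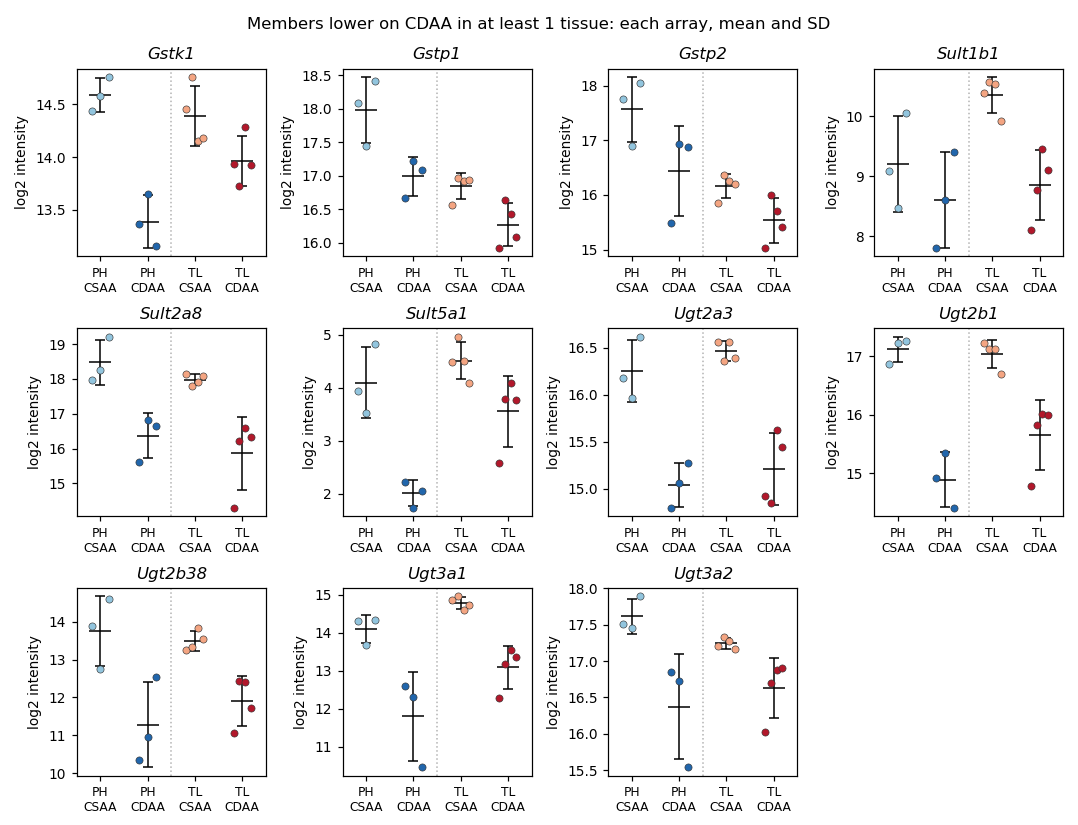
Log2 intensity (vertical axis) in every array for the 11 members that fell in at least 1 tissue, by tissue and diet, with mean and SD. Ugt2a3, Ugt2b1, Ugt2b38, Ugt3a1 and Sult2a8 show no overlap between diets in either tissue; levels are not comparable between tissues.

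Sulfotransferases were mostly dim: 16 of 21 were not above background in any group. Of the 21, 4 passed in total liver (19%, beside 10.3% of all probe sets) and 3 in hepatocytes (14.3%, beside 18.7%). Sult2a8, a sulfotransferase of bile acids, was the member of this family that fell in both tissues. In hepatocytes, Sult2a8 read 17.98, 18.26 and 19.21 on CSAA and 15.63, 16.82 and 16.65 on CDAA. In total liver, Sult2a8 read 18.13, 17.81, 17.91 and 18.07 on CSAA and 14.31, 16.23, 16.60 and 16.33 on CDAA. Every CDAA array was lower, with -2.12 ± 0.50 (4.34-fold lower, adjusted p = 0.00651) and -2.11 ± 0.43 (4.33-fold lower, adjusted p = 0.00425). The other 7 Sult2a genes of the chromosome 7 cluster and Sult2b1, a cholesterol sulfotransferase, were not above background in any group. Sult2a1, the hydroxysteroid enzyme, gave -0.63 ± 0.32 and -0.64 ± 0.28, without passing. With only the total liver arrays in the fit, -0.64 passed there (adjusted p = 0.0281). With array weights Sult2a1 passed in both tissues (-0.99 and -0.63, adjusted p = 0.0262 and 0.0423).

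Sult1d1, which sulfates catecholamines, rose in both tissues, close to the threshold. In hepatocytes, Sult1d1 read 11.20, 12.61 and 13.38 on CSAA and 13.23, 13.75 and 14.52 on CDAA. CSAA replicate 3 lay above CDAA replicate 1, so the diets overlapped, with 1.43 ± 0.46 (adjusted p = 0.0423). In total liver, Sult1d1 read 12.61, 13.32, 12.96 and 12.05 on CSAA and 14.03, 13.77, 14.22 and 14.26 on CDAA. All CDAA arrays were higher there, with 1.33 ± 0.40 (adjusted p = 0.0476). Neither call was stable. In hepatocytes it held only when the array left out was hepatocyte CSAA replicate 3 or CDAA replicate 1 or total liver CSAA replicate 2 or 4, and the value was 0.83 (adjusted p = 0.191) without hepatocyte CSAA replicate 1. In total liver it held only without hepatocyte CSAA replicate 1 or 3, hepatocyte CDAA replicate 1 or 3, or total liver CSAA replicate 2 (1.10 to 1.52, adjusted p up to 0.148).

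Sult1e1, the oestrogen sulfotransferase, rose in total liver, where no array was above background. In total liver, Sult1e1 read 2.93, 4.29, 4.07 and 3.30 on CSAA and 5.34, 7.33, 5.43 and 5.30 on CDAA. The diets did not overlap, and CDAA replicate 2 stood apart, with 2.20 ± 0.53 (adjusted p = 0.0145) and 0.0541 as the adjusted p without CSAA replicate 1, the one array whose removal lost the call. In hepatocytes the value was 0.88 ± 0.62 (adjusted p = 0.361) with overlap, and the difference between tissues was 1.32 ± 0.82 (adjusted p = 0.594).

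Sult1b1, which sulfates thyroid hormones and phenols, fell in total liver. In total liver, Sult1b1 read 10.39, 10.57, 10.53 and 9.92 on CSAA and 8.10, 8.77, 9.46 and 9.11 on CDAA. The diets did not overlap. No CDAA array was above background, so the fall was at least 1.24-fold, with a fitted -1.49 ± 0.38 (adjusted p = 0.0199). The call was lost without total liver CSAA replicate 1, 2 or 3 or CDAA replicate 1 or 2 (-1.69 to -1.24, adjusted p up to 0.0794). In hepatocytes, Sult1b1 read 9.09, 8.47 and 10.06 on CSAA and 7.81, 8.60 and 9.41 on CDAA. Those ranges overlapped, with -0.60 ± 0.44 (adjusted p = 0.384). Sult1b1, Sult1d1 and Sult1e1 follow one another on chromosome 5, just beyond the Ugt2 row.

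Sult5a1 fell in hepatocytes, but no array was above background in either tissue. In hepatocytes, Sult5a1 read 3.94, 3.52 and 4.83 on CSAA and 2.23, 1.74 and 2.06 on CDAA. The fit gave -2.09 ± 0.38 (adjusted p = 0.000935) without overlap, and -0.96 ± 0.33 (adjusted p = 0.0825) in total liver. Sult1a1, the main phenol sulfotransferase, did not pass. In total liver, Sult1a1 read 14.17, 14.37, 14.07 and 13.54 on CSAA and 14.57, 14.51, 14.70 and 14.79 on CDAA. Its CDAA arrays were all higher in that tissue, with 0.60 ± 0.22 (adjusted p = 0.0992), and the hepatocyte value was -0.21 ± 0.25 (adjusted p = 0.619). Sult1a1 did pass in total liver with only that tissue's arrays in the fit (0.60, adjusted p = 0.0388) and with array weights (0.68, adjusted p = 0.0107). Sult1c2 gave 0.19 ± 0.33 and 0.13 ± 0.28, and Sult3a1, an amine sulfotransferase, 0.02 ± 0.27 and 0.07 ± 0.23.

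Among the total liver CDAA arrays, replicate 1 was the lowest in 5 of the 6 members that fell, with a mean over these 6 of 12.57 beside 13.55 to 13.94 in the other 3. That array also had the highest mean of recruited macrophage markers (10.93 beside 9.96 to 10.13) and of stellate cell markers (10.33 beside 9.14 to 9.56). Its hepatocyte marker mean was the highest too (18.35 beside 18.20 to 18.25), while its sinusoidal endothelial mean was the lowest (10.01 beside 10.62 to 10.74). The mean of the male-biased genes described below was lowest there (10.11 beside 11.22 to 11.84). Whether these are linked was not tested. Without that array, 4 of the 6 calls remained, the same number as without total liver CSAA replicate 1, 2 or 3.

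The genes that supply the co-substrates moved unevenly. For glucuronidation, 3 of 8 genes rose in total liver and 4 in hepatocytes, with list medians of 0.75 and 0.90 on the log2 scale. In either direction 37.5% and 62.5% of the list passed, beside 10.3% and 18.7% of all probe sets. Ugdh, which makes UDP-glucuronic acid, was the clearest, at 1.86 ± 0.25 in hepatocytes and 1.84 ± 0.22 in total liver (adjusted p = 5.15e-05 and 4.58e-05), the opposite direction to the Ugt genes that fell. Gusb, the lysosomal glucuronidase that cleaves glucuronides, and Pgm2, a phosphoglucomutase, also rose in both, from levels not above background on CSAA. Uxs1, which turns UDP-glucuronic acid into UDP-xylose, rose (1.02 ± 0.28) and Pgm1 fell (-1.86 ± 0.34) in hepatocytes alone.

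For glutathione, 13.3% of 15 genes passed in total liver and 20% in hepatocytes, near the 10.3% and 18.7% of all probe sets. The 2 that rose in total liver were Slc7a11, the cystine importer, at 2.56 ± 0.42, and Gss, glutathione synthetase, at 1.32 ± 0.29. In hepatocytes Slc7a11 and Gpx4 rose and Cbs, the first enzyme of transsulfuration, fell (-2.67 ± 0.64). Slc7a11 was not above background in any group. The subunits of the rate-limiting ligase did not pass. Gclc gave -0.77 ± 0.55 in hepatocytes and 0.47 ± 0.48 in total liver, and Gclm -0.01 ± 0.25 in hepatocytes and 0.29 ± 0.21 in total liver. In hepatocytes, Gclc did pass without CDAA replicate 1 (-1.46, adjusted p = 0.0293) and with array weights (-1.54, adjusted p = 0.0161). For sulfation, 25% of 8 genes passed in each tissue, beside the same 10.3% and 18.7%. In total liver Slc26a2, a sulfate carrier not above background in either diet, rose (0.81 ± 0.21) and Suox, sulfite oxidase, fell (-1.13 ± 0.34). Suox and Bpnt1 fell in hepatocytes. Papss2, the PAPS synthase, gave -0.47 ± 0.53 in hepatocytes and 0.07 ± 0.46 in total liver and did not pass.

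Transporters that carry conjugates or drugs out of cells rose in 5 of 10 cases in each tissue. In either direction 60% passed in total liver and 70% in hepatocytes, beside 10.3% and 18.7% of all probe sets. The 5 that rose were Abcc4, Abcb1a, Abcb1b, Abcc5 and Abcc1, none of them above background on CSAA in either tissue. Abcc1 was not above background on CDAA either, and in total liver the same held for Abcb1b and Abcc5. Abcc4 rose at least 1.61-fold in total liver, and Abcb1a at least 1.36-fold in hepatocytes. Slc22a7, an organic anion transporter, fell in both, by a log2 fold change of -4.94 ± 0.44 in hepatocytes and at least 2.95-fold in total liver, where it was not above background on CDAA, and Abcc6 fell in hepatocytes. Among 17 other phase II or detoxifying enzymes, Nqo1, a quinone reductase, and Ephx1, microsomal epoxide hydrolase, rose in both tissues. Keg1, a glycine acyltransferase, and Ephx2 fell in both, Acsm3 in total liver, and Acsm1 and Tpmt in hepatocytes. Of these 17 enzymes 29.4% passed in total liver and 35.3% in hepatocytes.

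Known targets of NRF2 outside these families rose in 10 of 19 cases in total liver and 11 in hepatocytes, with list medians of 1.25 and 1.04. In either direction 52.6% and 63.2% of the list passed, beside 10.3% and 18.7% of all probe sets. Hmox1, haem oxygenase, rose at least 8.89-fold in total liver, and its hepatocyte log2 fold change was 6.72 ± 0.38. Srxn1, sulfiredoxin, rose at least 11.4-fold in total liver and at least 5.53-fold in hepatocytes. Macrophages also make Hmox1, and their markers rose in both tissues, but their part in this result was not tested. Nfe2l2, which encodes NRF2, gave 0.82 ± 0.63 in hepatocytes and 0.74 ± 0.55 in total liver (adjusted p = 0.41 and 0.448). It did pass in some alternatives. In hepatocytes it was 1.90 without CDAA replicate 3 (adjusted p = 0.000796) and 1.58 with array weights (adjusted p = 0.0191). With only the total liver arrays in the fit, 0.74 passed there (adjusted p = 0.0482). Keap1, the inhibitor of NRF2, gave 0.05 ± 0.32 in hepatocytes and 0.36 ± 0.28 in total liver. Of 23 regulators, Mafk, not above background in either diet, rose and Ghr, the growth hormone receptor, fell in total liver, and Ghr, Ppara and Hnf4a fell in hepatocytes. These shares, 8.7% and 13%, were below the 10.3% and 18.7% of all probe sets. The receptors Nr1i2 (PXR), Nr1i3 (CAR) and Ahr did not pass in either tissue. In hepatocytes, Nr1i2 did pass without CDAA replicate 1 (-1.15, adjusted p = 0.0329) and with median centring (-1.05, adjusted p = 0.0469). Ahr passed in total liver with only that tissue's arrays in the fit (0.70, adjusted p = 0.0175) and with array weights (0.73, adjusted p = 0.0281). It also passed there without hepatocyte CDAA replicate 1 (0.70, adjusted p = 0.0408).

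Of 11 targets of CAR and PXR, 4 rose in total liver (Cyp2b10, Cyp3a11, Gadd45b, Cyp2b9) and 3 in hepatocytes (Cyp3a11, Gadd45b, Aldh1a1). These were 36.4% and 27.3%, beside 10.3% and 18.7% of all probe sets. In total liver, Cyp2b10 and Gadd45b were not above background in either diet, and Cyp2b9 was not on CSAA. Of 8 AHR targets, Nqo1 rose in both tissues and Tiparp, not above background in either diet, rose in hepatocytes. This was 12.5% in total liver and 25% in hepatocytes, beside 10.3% and 18.7% of all probe sets. Nqo1 is also counted among the NRF2 targets and the other phase II enzymes. Cyp3a11, a major drug-oxidising enzyme, gave 1.66 ± 0.25 in hepatocytes and 1.27 ± 0.22 in total liver. Genes known to be higher in male than female mouse liver fell in 16 of 19 cases in total liver and 15 in hepatocytes, with list medians of -3.15 and -3.19. In either direction 89.5% and 78.9% of that list passed, beside 10.3% and 18.7% of all probe sets. Hsd3b5, a steroid reductase of male liver, fell at least 149-fold in total liver. Of 23 genes known to be higher in females, 11 rose and 2 fell in total liver, and 8 rose and 2 fell in hepatocytes (56.5% and 43.5%). Cyp2a4 was an example that rose (6.36 ± 0.64 in hepatocytes and 4.87 ± 0.55 in total liver) and Cyp2c40 one that fell, by a log2 fold change of -2.89 ± 0.56 in hepatocytes and at least 7.5-fold in total liver, where it was not above background on CDAA.

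Over all alternatives, 22 of 82 calls of named list genes were lost in at least 1. Some list genes that did not pass in the main fit passed in an alternative, among them Nfe2l2, Gclc, Nr1i2 and Ahr, as given above. With only the hepatocyte arrays in the fit, the hepatocyte calls of Cbs (adjusted p = 0.131), Ppara (0.0674), Suox (0.0769), Abcc4 (0.0603) and Acsm1 (0.109) were lost, although each held with any single array left out. Others did not hold when 1 array was left out, with adjusted p up to the value given. In total liver these were Suox (held only without hepatocyte CDAA replicate 1 or 3 or total liver CDAA replicate 3, 0.133), Cyp2b9 (held only without hepatocyte CDAA replicate 1 or 3 or total liver CDAA replicate 2, 0.148), Slc26a2 (lost without CSAA replicate 2 or CDAA replicate 1 or 4, 0.0732) and Acsm3 (CDAA replicate 1 or 2, 0.06). There, Ephx2 was lost without any total liver array but CDAA replicate 3 (0.0876), and Gadd45b without CSAA replicate 1, 2 or 4 or CDAA replicate 1 or 3 (0.0943). In hepatocytes, Gpx4 (CSAA replicate 1 or 2 or CDAA replicate 3, 0.0677), Bpnt1 and Tpmt (CSAA replicate 1 or 3 or CDAA replicate 3, 0.113 and 0.142) and Uxs1 (CSAA replicate 2 or CDAA replicate 3, 0.0777) were lost. So were Abcc1 (CSAA replicate 1 or 2 or CDAA replicate 2, 0.111), Hnf4a (CSAA replicate 1 or CDAA replicate 2 or 3, 0.0689), Tiparp (any hepatocyte array but CDAA replicate 1, 0.12), Aldh1a1 (CDAA replicate 2, 0.0787) and Ephx1 (CSAA replicate 2, 0.0525). Without CDAA replicate 3, the log2 fold change was 1.30 for Gpx4, -0.69 for Bpnt1 and 0.67 for Uxs1, each over 1.5 times smaller. Cbs, Uxs1, Pgm1, Abcc1, Abcc6, Acsm1, Tpmt, Ppara and Hnf4a were named after their values were seen.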

How the data were processed

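RNA of 14 samples was read on Clariom S mouse arrays, 1 array each, and grouped by the tissue and diet in the sample titles: 3 per diet for hepatocytes and 4 per diet for total liver. Per the submitters' processing notes, the authors used RMA (version not stated), and the deposited values are log2 intensities per probe set. The median of an array was 4.56 to 4.71 for hepatocytes and 6.07 to 6.24 for total liver.

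Of 28846 probe sets, 6640 controls were left out and 22206 tested; 19572 had 1 gene symbol, 2634 none and 0 several. One linear model of 4 group means covered the 14 arrays (limma 3.58.1, R 4.3.3, 10 residual and 5.11 prior degrees of freedom, two-sided moderated tests), and the code was tested on simulated data. Symbols came from the platform annotation. Gene order and promoter windows came from RefSeq (GRCm38.p6), and no build is named with the values. Windows were aligned with Biopython 1.88.

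Named genes were every member past the threshold, a fixed set of further members, and per list up to 5 with the smallest p in total liver plus set regulators. Members and lists were chosen with earlier results of these data known. Where a group was not above background, bounds used the mean of the background percentile over its arrays. Equal replicate numbers did not pair the arrays (residual correlations 0.35, -0.21 and 0.26 in hepatocytes, -0.13 to 0.02 in total liver). The alternatives were limma's trend with robust moderation, a fit of only the tissue compared, leaving out the dimmest 30%, joint quantile normalization, median centring, array weights, a replicate block, the mean over probe sets, leaving out each array and, chosen after the data were seen, centring on hepatocyte markers. Array scan dates were not used here.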

Additional observations from a re-analysis of the deposited data

Results flagged for a closer look

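In 6 named members 1 total liver array stood far from the other 3 of its group. Sult2a8 read 14.31 in CDAA replicate 1, where the others read 16.23 to 16.60, and Ugt2b1 read 14.77 in the same array beside 15.83 to 16.01. Ugt8a, under background, read 4.54 in that array beside 3.69 to 3.73. Sult1e1, also under background, read 7.33 in CDAA replicate 2 beside 5.30 to 5.43. Gsto1 read 11.82 in CDAA replicate 4 beside 12.39 to 12.47, and Gstp1 read 16.56 in CSAA replicate 1 beside 16.92 to 16.97. Over all members 9 of 112 groups of 4 arrays had such an array, where chance gives about 1 in 20.

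The diet effect on Gstm3 differed between the tissues by a test of the difference itself, at -2.27 on the log2 scale, total liver minus hepatocytes.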

How the results depend on the processing

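Of the 35 member calls, 24 held in every alternative that tested them (23 alternatives, but 22 for Sult5a1 in hepatocytes, which was among the dimmest 30%) and 11 were lost in at least 1, and no call changed sign. The members that fell in total liver numbered 6, against 14 with only the total liver arrays in the fit and 12 with array weights; those that fell in hepatocytes numbered 10, against 6 with only the hepatocyte arrays in the fit and 6 with arrays centred on hepatocyte markers (chosen after the data were seen). The main fit shared 1 estimate of the spread per probe set between the tissues. The residuals of an array (root mean square) were 0.229 to 0.320 in total liver and 0.363 to 0.594 in hepatocytes. The causes of the changed counts were not tested. The 1 member that differed between tissues, Gstm3, became 0 with joint quantile normalization. With single arrays left out, 7 to 11 members rose and 4 to 7 fell in total liver, 8 to 11 rose and 8 to 12 fell in hepatocytes, and 0 were higher and 1 to 1 lower in the difference. With the replicate number as a block, 10 rose and 6 fell in total liver, 9 rose and 11 fell in hepatocytes, and 0 and 1 passed in the difference; the block lost no member call. Over all probe sets, 65.6% of total liver calls and 58.7% of hepatocyte calls were higher on CDAA, against 43.4% and 39.8% with median centring and 69.1% and 85.2% with hepatocyte marker centring. These scalings moved the median log2 fold change of all probe sets from -0.09 and -0.13 to -0.23 and -0.29, and to -0.09 and 0.27. Leaving out the dimmest 30% left 44 members tested, and 20 of 56 members were not above background in any group, which limits what can be said of most sulfotransferases.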
